A study of Arabidopsis thaliana with 15 samples.

Results

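The MORF (MULTIPLE ORGANELLAR RNA EDITING FACTOR) genes were followed through 15 leaf RNA-seq libraries of Arabidopsis thaliana. The members were chosen by name, and 8 of the 9 genes named MORF1 to MORF9 were found by their locus identifiers in the count tables, among 32733 genes in all. These are MORF1 and MORF3 to MORF9; the remaining gene is not analysed here. Each library held ribosomal RNA-depleted total RNA of rosette leaves. The libraries came from 4 T-DNA insertion lines and from the wild type Col-0, 3 of each. The lines were pgn (insertion in PGN, AT1G56570), mef37-1 (AT5G08305), at3g50420 and at5g10690, which are named after genes of pentatricopeptide repeat (PPR) proteins or after the locus with the insertion. No line received a treatment, and all plants grew with 16 h of light at 20 °C and 8 h of dark at 18 °C according to the sample labels. Plants were 25.5 days old by the labels of 12 libraries. Replicates 1 and 2 of at5g10690 carry a growth stage (1.14 on the Boyes scale) in place of an age, and its replicate 3 carries neither, so that age and line cannot be told apart for this line. Each insertion line is a single insertion allele in leaves of mixed cell types.

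Plant mitochondria and plastids change specific cytidines of their transcripts to uridines after transcription. A PPR protein recognises the bases before the cytidine, and MORF proteins, which are encoded in the nucleus and imported into the organelles, bind PPR proteins and other MORF proteins in the editing complex and are needed at many sites. MORF9 is a plastid protein, MORF8 (also called RIP1) is found in both organelles, and MORF1, MORF3, MORF4, MORF5, MORF6 and MORF7 are mitochondrial. Loss of MORF1 or MORF3 lowers the editing of many mitochondrial sites, loss of MORF8 affects sites of both organelles, and loss of MORF9 affects plastid sites.

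The 8 genes share a coding exon of 66 bases, and 7 of them, all but MORF4, also have an exon of 98 bases. The 66-base exons are shown because they are where the family can be read side by side, and because the counts of such similar genes could in principle be mixed up. They were read from the RefSeq genome of the TAIR10.1 assembly, in the 5′ to 3′ direction of the gene, with capitals for the 24 positions at which all 8 genes have the same base.

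MORF1: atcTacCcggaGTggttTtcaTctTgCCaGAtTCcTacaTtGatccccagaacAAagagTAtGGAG
MORF3: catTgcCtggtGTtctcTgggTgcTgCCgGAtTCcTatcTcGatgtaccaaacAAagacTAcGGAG
MORF4: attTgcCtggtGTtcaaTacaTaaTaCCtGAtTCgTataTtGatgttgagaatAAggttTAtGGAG
MORF5: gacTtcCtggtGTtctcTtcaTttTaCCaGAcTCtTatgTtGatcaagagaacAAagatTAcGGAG
MORF6: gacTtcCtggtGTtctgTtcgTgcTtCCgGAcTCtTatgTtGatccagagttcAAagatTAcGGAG
MORF7: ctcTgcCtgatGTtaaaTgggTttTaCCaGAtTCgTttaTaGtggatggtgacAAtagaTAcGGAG
MORF8: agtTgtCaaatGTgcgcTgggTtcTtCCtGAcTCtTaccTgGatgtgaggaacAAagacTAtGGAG
MORF9: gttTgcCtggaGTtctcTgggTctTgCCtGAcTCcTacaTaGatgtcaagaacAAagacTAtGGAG

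MORF5 and MORF6 were the most alike in this exon, with 57 of 66 bases the same (86.4%), and MORF1 and MORF7 the least, with 34 of 66 (51.5%). MORF9 shared 77.3% of the bases with MORF3 and 74.2% each with MORF1 and MORF8. In the annotation the exon lies at chr4:10845247-10845312 on the minus strand in MORF1 (AT4G20020) and at chr3:2144847-2144912 on the minus strand in MORF3 (AT3G06790). It lies at chr5:18068725-18068790 on the plus strand in MORF4 (AT5G44780), at chr1:11784758-11784823 on the plus strand in MORF5 (AT1G32580) and at chr2:14845529-14845594 on the minus strand in MORF6 (AT2G35240). For MORF7 (AT1G72530) it lies at chr1:27313546-27313611, for MORF8 (AT3G15000) at chr3:5051063-5051128 and for MORF9 (AT1G11430) at chr1:3848606-3848671, all on the plus strand. Of the stretches of 75 bases, the read length of the study, that fit within an exon of the 8 genes, 0 occurred a second time exactly in the genome. The 66-base exon is shorter than a read, so it did not enter this check, and neither did reads across a junction. Whether such reads had 1 best place was not tested. The exons of MORF3, MORF4 and MORF7 overlap genes of the opposite strand by 138, 1480 and 322 bases, and the reads were counted by strand. MORF9 overlaps a gene of its own strand by 24 bases.

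Total counts ranged from 19555274 to 30901304 per library, of which plastid genes took 59.1% to 65.1% and mitochondrial genes 0.879% to 1.56%. The 3 libraries of a line differed by more than counting noise, but 1 biological replicate is what the series' design text states, so that p-values measure the spread between these libraries, which may be technical. The count of PGN was 9, 6 and 16 in pgn, against 23, 36 and 22 in Col-0, and that of AT5G10690 was 1, 3 and 4 in at5g10690, against 318, 319 and 201 in Col-0. AT5G08305 had 17, 20 and 12 counts in the libraries labelled mef37-1, against 8, 8 and 21 in Col-0, and AT3G50420 had 10, 11 and 13 in the libraries labelled at3g50420, against 11, 16 and 14 in Col-0. The counts therefore do not tell these last 2 lines from Col-0 at the inserted gene. Below, mef37-1 and at3g50420 stand for the libraries so labelled. Of the leaf mesophyll markers, LHCB1.3 reached 113224 to 310040 counts per library, while the floral and root markers had 0 to 3 counts and IRT1, a root iron transporter, had 0 in all 15 libraries.

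All 8 MORF genes were detected in every library, with 11 to 1091 counts. Their levels are given first as RPKM, because only values per length can be compared between genes. RPKM are counts per 1000 exon bases and 1000000 counts of the library, with library sizes scaled by TMM. MORF8 and MORF9 stood highest. MORF8 had 18.6, 19.8 and 20.3 RPKM in Col-0 replicates 1 to 3 (19.6 ± 0.83, SD, n = 3), and MORF9 had 17.1, 20.3 and 13.3 RPKM (16.9 ± 3.5). Their ranges overlapped in Col-0, and MORF8 was above MORF9 in 7 of the 15 libraries, so their order is not settled. Between them they held 36.1% and 30.9% of the summed RPKM of the 8 genes in Col-0. Among 18188 nuclear genes tested they lay at percentiles 91.5 and 90.0, where the median gene had 3.19 RPKM.

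The next 4 genes, all of mitochondrial proteins, lay within 3.67 to 4.86 RPKM. MORF5 had 4.86 ± 0.17 RPKM, MORF6 4.63 ± 0.59, MORF1 3.68 ± 0.88 and MORF3 3.67 ± 0.75 in Col-0 (SD, n = 3 each). No neighbours among these 4 were separated in Col-0, and MORF5 was above MORF6 in 9 of 15 libraries and MORF1 above MORF3 in 6 of 15. MORF7, with 0.76 ± 0.22 RPKM, and MORF4, with 0.37 ± 0.076, were the lowest. The steps from MORF9 to MORF5 (3.47-fold), from MORF3 to MORF7 (4.86-fold) and from MORF7 to MORF4 (2.07-fold) were seen in 15 of 15 libraries and without overlap in Col-0. From MORF8 to MORF4 the levels spanned 53.5-fold. The reads were mapped without splicing, and 70.7% (MORF3) to 92.4% (MORF4) of read positions lie within 1 exon, and the reads that cross a junction may be missing from these levels. With those positions as length, or with coding length, the order changed only among MORF1, MORF3, MORF5 and MORF6.

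**Figure D1:**
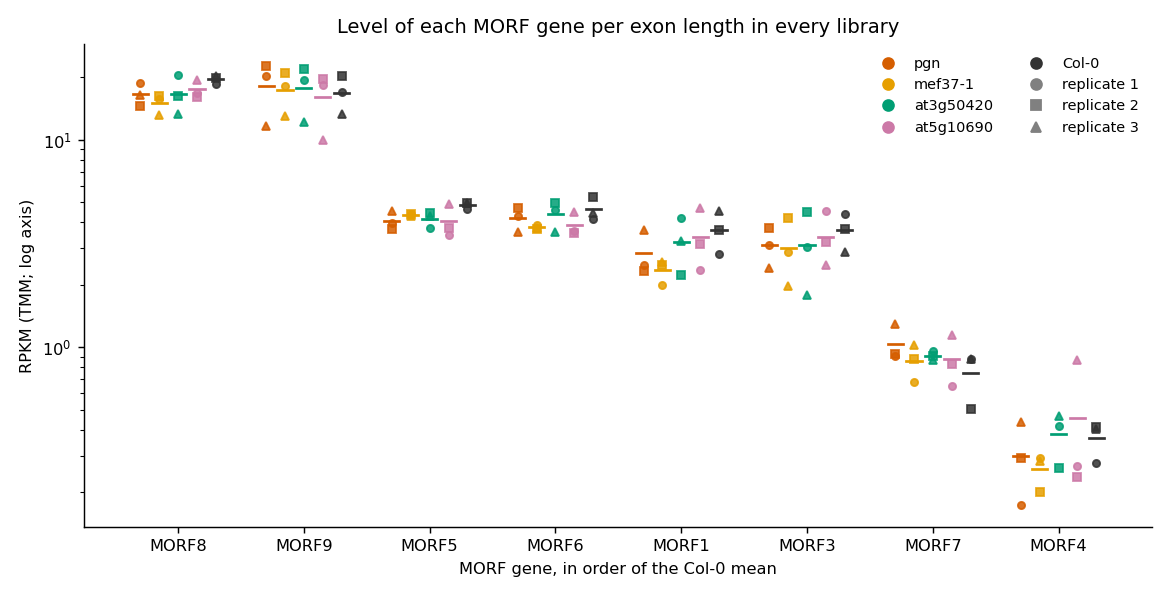
RPKM of the 8 MORF genes on a log axis, with genes in the order of their Col-0 mean; each point is 1 library, colours give the line, marker shapes the replicate number, and bars the mean of 3 libraries. MORF8 and MORF9 form an upper pair at 9.94 to 22.7 RPKM. The next 4 genes lie at 1.78 to 5.29 RPKM, and MORF7 and MORF4 lie apart below 1.3 RPKM.

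MORF10 (AT1G53260), a further sequence of this family, had 0 counts in 13 libraries, which allows up to 3 counts each by counting error alone. It had 1 count in at3g50420 replicate 2 and 6 in at5g10690 replicate 3.

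Whether the family differs between an insertion line and Col-0 was asked in a fit for each line (edgeR's quasi-likelihood test over all genes, Benjamini-Hochberg adjusted p under 0.05). All 8 genes passed the filter on low counts in every comparison, and 0 of 8 were called in any line. Few genes of any kind were: the tests called 0% of 17521 genes in pgn, 0.00569% of 17561 in mef37-1, 0% of 17599 in at3g50420 and 0.0114% of 17602 in at5g10690. At an unadjusted p under 0.05 there were 153, 247, 512 and 55 genes, among which MORF1 and MORF8 in mef37-1 were the only members, and DESeq2 also called 0 of 8 in each line. These numbers are lower than evenly spread p-values would give, so this fit was conservative. It did not call PGN itself in pgn (log2 fold change −1.35, SE 0.46, unadjusted p = 0.0218 by edgeR). A gene that is not called may therefore still differ. A test for any difference among the 5 lines called 0.0218% of 18358 genes and 0 of 8 MORF genes. The 4 comparisons share the 3 Col-0 libraries. Blocking on the replicate number, the tests called 0.00571%, 0.0114%, 0.00568% and 0.0114% of genes in pgn, mef37-1, at3g50420 and at5g10690, and 0.0381% among the 5 lines, again with 0 of 8 MORF genes. With this block 1239, 638, 1266 and 323 genes, in the same order of lines, had an unadjusted p under 0.05. Among them were MORF1 (log2 fold change −0.63, SE 0.15, unadjusted p = 0.00559 by edgeR) and MORF8 (−0.39, SE 0.14, unadjusted p = 0.0308) in mef37-1. The only other member was MORF1 in pgn (−0.38, SE 0.15, unadjusted p = 0.0365 by edgeR).

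MORF1, a mitochondrial cofactor whose loss affects many sites, had 3.23, 4.03 and 4.19 CPM (counts per 1000000 counts of the library, with library sizes scaled by TMM) in mef37-1, against 4.54, 5.96 and 7.39 CPM in Col-0. All 3 mef37-1 libraries were below all 3 Col-0 libraries. The fitted log2 fold change was −0.65 (SE 0.22, 95% interval −1.17 to −0.12), with an unadjusted p of 0.0231 and an adjusted p of 1.00 from edgeR. In pgn MORF1 had 4.05, 3.79 and 5.97 CPM (log2 fold change −0.38, SE 0.25), in at3g50420 6.83, 3.61 and 5.28 CPM (−0.19, SE 0.28) and in at5g10690 3.83, 5.11 and 7.63 CPM (−0.08, SE 0.31). These values overlapped those of Col-0.

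MORF8, the cofactor of both organelles, had 25.8, 26.8 and 21.7 CPM in mef37-1, against 30.7, 32.6 and 33.4 CPM in Col-0, again without overlap. Its log2 fold change was −0.38 (SE 0.14, 95% interval −0.71 to −0.055; unadjusted p = 0.0279, adjusted p = 1.00 from edgeR). In pgn it had 30.9, 24.1 and 27.0 CPM, in at3g50420 33.8, 26.8 and 21.9 CPM and in at5g10690 27.8, 26.4 and 32.2 CPM, each overlapping with Col-0. The fitted differences were −0.25 (SE 0.15), −0.23 (SE 0.20) and −0.14 (SE 0.17) on the log2 scale.

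In mef37-1, MORF5 and MORF6 were also below every Col-0 library, so that 4 of 8 members did not overlap with Col-0, where 5.74% of 18358 genes did not overlap in either direction. MORF5 had 6.74, 6.71 and 6.57 CPM in mef37-1, against 7.13, 7.57 and 7.59 CPM in Col-0, and its log2 difference of −0.16 (SE 0.12) was small. MORF5 was likewise below every Col-0 library in pgn, with 6.10, 5.71 and 6.92 CPM, and in at3g50420, with 5.75, 6.79 and 6.56 CPM. The 3 Col-0 libraries lay close together for this gene, and all 3 comparisons use them. MORF7 was above every Col-0 library in pgn, with 1.20, 1.23 and 1.72 CPM against 1.17, 0.672 and 1.17 CPM, a log2 difference of 0.44 (SE 0.32). In pgn 2 of 8 members and 4.62% of genes did not overlap with Col-0, in at3g50420 1 of 8 and 7.9%, and in at5g10690 0 of 8 and 3.38%.

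**Figure D2:**
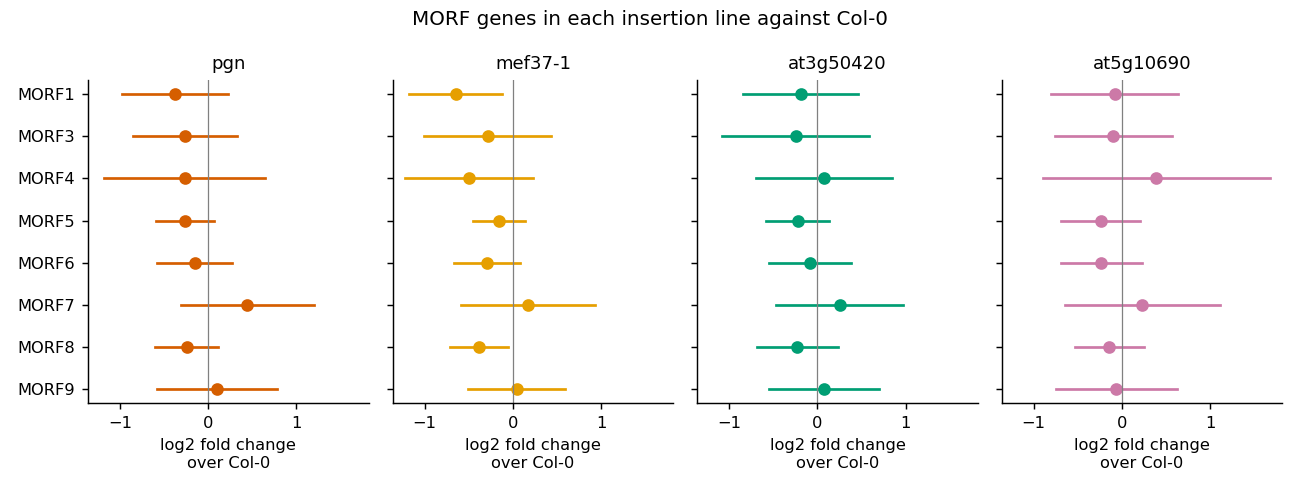
Log2 fold change of each MORF gene over Col-0 in the 4 insertion lines (points) with 95% intervals (lines). They are from edgeR's quasi-likelihood fit of 3 against 3 libraries, without the block on the replicate number. All intervals but those of MORF1 and MORF8 in mef37-1 include 0, and MORF4 in at5g10690 has the widest interval, −0.90 to 1.68.

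Most fitted differences were below 0. The count was 6 of 8 in pgn, 6 of 8 in mef37-1, 5 of 8 in at3g50420 and 6 of 8 in at5g10690, with medians of −0.25, −0.29, −0.13 and −0.09 on the log2 scale, beside medians over all genes of −0.01, −0.02, −0.01 and 0.00. Summed over the 8 genes, pgn had 60.9, 67.6 and 71.0 CPM, mef37-1 53.9, 63.1 and 68.8, at3g50420 54.3, 71.2 and 76.5, and at5g10690 65.8, 66.2 and 68.5, against 70.5, 71.7 and 77.9 CPM in Col-0, each in ascending order. On this scale the sums of mef37-1 and at5g10690 were below those of Col-0 without overlap. With RLE size factors at5g10690 had 65.7 to 68.4 CPM, against 70.8 to 77.5 in Col-0. With TMM over the nuclear genes alone it had 176 to 183, against 188 to 205 in Col-0. For at5g10690 the separation rests on library sizes being scaled in 1 of these ways. Per 1000000 nuclear counts without TMM, its libraries had 167, 173 and 233 MORF counts, against 195, 201 and 216 in Col-0, and replicate 3, whose TMM factor of 1.301 was the highest of all, was then the highest library of the 15. On that scale the mef37-1 libraries had 165, 176 and 149, the pgn libraries 176, 162 and 176 and the at3g50420 libraries 176, 176 and 150, all below Col-0. Without MORF8 the CPM sums overlapped with Col-0, at 32.1 to 42.0 CPM in mef37-1 and 36.4 to 39.8 in at5g10690, against 38.3 to 45.4 CPM in Col-0. No test was made of these sums, and all 4 lines are read against the same Col-0 libraries. The intervals of single genes leave room for differences of some size. For MORF9 in mef37-1 they ran from −0.50 to 0.59 and for MORF3 from −1.004 to 0.44.

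The members differed in how much they varied. Over the 15 libraries the SD of the CPM was 47.8% of the mean for MORF4, the gene with the fewest counts, 28.4% for MORF1, 27.6% for MORF3, 23.9% for MORF9 and 21.4% for MORF7, but 14.1% for MORF8, 13.4% for MORF6 and 10.97% for MORF5. Within lines the pooled SD was much the same, from 9.85% of the mean in MORF5 to 51.2% in MORF4. Part of the spread followed the replicate number that the labels give to the libraries. Libraries of each insertion line deviated together with the Col-0 library of the same number, over the genes that passed the filter. The 5 libraries of each number were therefore compared in a fit with line and number. The labels do not say what a number stands for, so a shared growth, harvest or sequencing occasion was not tested. The comparison called 33.9% of 18358 genes for number 3 against 1, 32.4% for 3 against 2 and 2.45% for 2 against 1.

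MORF9 and MORF3 were lower in the libraries numbered 3. MORF9 had 12.1, 13.5, 12.7, 10.3 and 13.8 CPM in replicate 3 of pgn, mef37-1, at3g50420, at5g10690 and Col-0. In the same order of lines it had 23.6, 21.7, 22.7, 20.5 and 21.1 CPM in replicate 2, and 21.0, 18.9, 20.1, 19.1 and 17.7 CPM in replicate 1. Every library numbered 3 was below every other library. MORF9 fell by 0.81 on the log2 scale in number 3 against 2 (SE 0.085, adjusted p = 9.52e-05 by edgeR's quasi-likelihood test), and by 0.63 against 1 (SE 0.085, adjusted p = 0.000361), lower in 5 of 5 lines each time.

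MORF3, a mitochondrial cofactor, had 2.36, 1.94, 1.75, 2.45 and 2.84 CPM in replicate 3 of pgn, mef37-1, at3g50420, at5g10690 and Col-0. It had 3.70, 4.11, 4.42, 3.16 and 3.67 CPM in replicate 2, and 3.07, 2.84, 2.996, 4.48 and 4.30 CPM in replicate 1. Within each of the 5 lines number 3 was the lowest, although across lines the ranges of numbers 3 and 1 touched. MORF3 fell by 0.77 against number 2 (SE 0.17, adjusted p = 0.00402 by edgeR) and by 0.64 against number 1 (SE 0.17, adjusted p = 0.0122).

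The 2 of 8 members that fell stand beside 17.2% of all genes that fell in 3 against 2 and 18.4% in 3 against 1, a share near the background. The members without overlap were MORF9 and MORF3 in 3 against 2, where 23.8% of genes did not overlap, and MORF9 in 3 against 1, where 17.6% did not. Between numbers 2 and 1, 0 of 8 MORF genes were called with edgeR and 0 with DESeq2, 0 of them at an unadjusted p under 0.05. MORF9 was nearest, at 0.18 (SE 0.084, unadjusted p = 0.0543, adjusted p = 0.248 by edgeR).

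MORF1 and MORF4 lay the other way but did not pass the test. MORF1 had 5.97, 4.19, 5.28, 7.63 and 7.39 CPM in replicate 3 of pgn, mef37-1, at3g50420, at5g10690 and Col-0, against 4.05, 3.23, 6.83, 3.83 and 4.54 CPM in replicate 1, higher in 4 of 5 lines. Its log2 difference was 0.44 (SE 0.18, adjusted p = 0.0843 by edgeR), and without at3g50420 replicate 1 it was 0.68 with an adjusted p of 0.00223. Against number 2, where MORF1 had 3.79, 4.03, 3.61, 5.11 and 5.96 CPM, it was 0.43 (SE 0.18, adjusted p = 0.0898) and higher in 5 of 5 lines, and without at3g50420 replicate 1 the adjusted p was 0.0124.

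MORF4, the least abundant member, had 1.23, 0.793, 1.31, 2.45 and 1.14 CPM in replicate 3 of the same lines, from 18 to 83 counts, against 0.490, 0.827, 1.18, 0.755 and 0.783 CPM in replicate 1. Its log2 difference was 0.74 (SE 0.29, adjusted p = 0.0664 by edgeR). A single library weighed on it: at5g10690 replicate 3 had 2.45 CPM, and without that library the difference was 0.45 (adjusted p = 0.242). Without at3g50420 replicate 1 it was 0.92 (adjusted p = 0.0416), and without mef37-1 replicate 1 it was 0.90 (adjusted p = 0.0451). Against number 2 the difference was 0.77 (SE 0.29, adjusted p = 0.0597), which became 0.97 (adjusted p = 0.0346) without Col-0 replicate 2 and 0.89 (adjusted p = 0.0450) without mef37-1 replicate 3.

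The remaining 4 members were not called by number. MORF5, MORF6, MORF7 and MORF8 had log2 differences of 0.18, −0.04, 0.34 and −0.14 in number 3 against 1, with adjusted p-values of 0.160, 0.830, 0.204 and 0.372 from edgeR. The 95% intervals ran from −0.03 to 0.39, −0.31 to 0.23, −0.09 to 0.76 and −0.40 to 0.11. In number 3 against 2 the same genes had 0.12, −0.15, 0.37 and −0.02, with adjusted p-values of 0.372, 0.376, 0.170 and 0.935 from edgeR. For MORF7 that interval ran from −0.06 to 0.79, so a difference as large as that of MORF1 is not excluded.

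**Figure D3:**
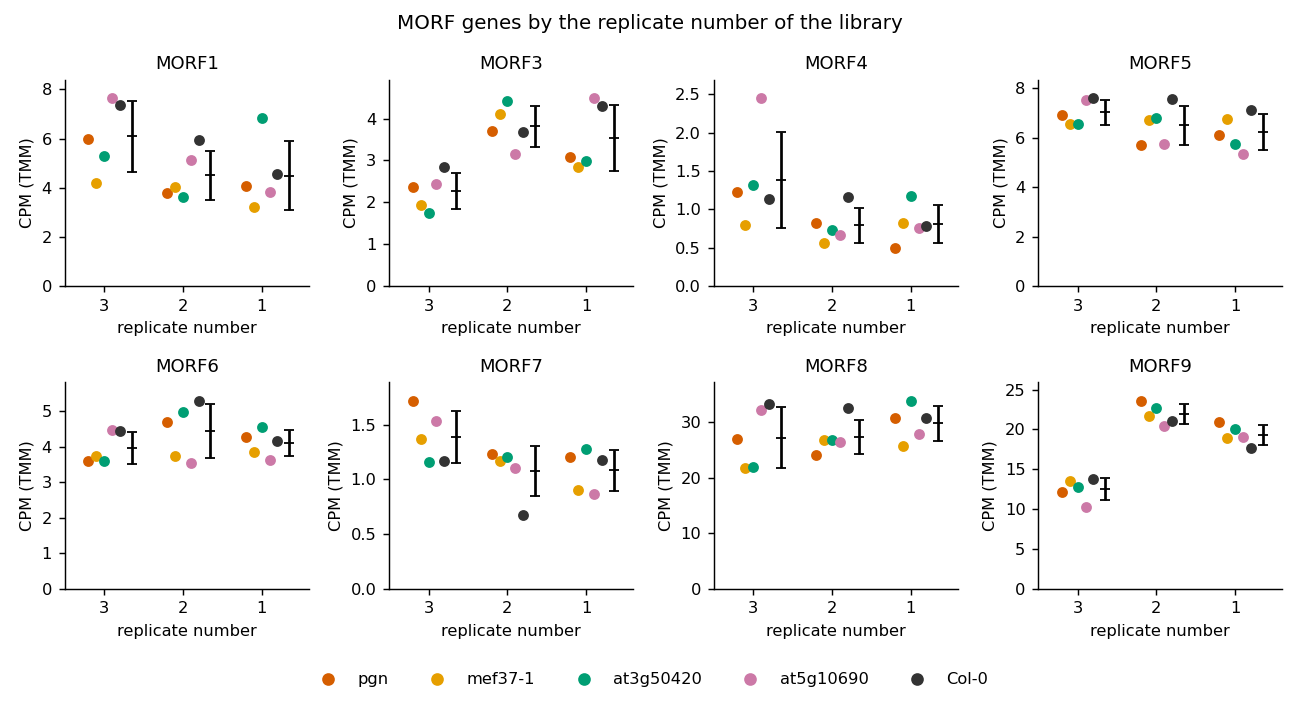
CPM of the 8 MORF genes by the replicate number in the labels, with 1 point per library in the colour of its line and the mean with SD (n = 5) to the right; each axis starts at 0. MORF9 lies at 10.3 to 13.8 CPM in all libraries numbered 3, below the 17.7 to 23.6 CPM of the other 10 libraries.

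As a result the make-up of the family shifted with the number. The ratio of MORF8 to MORF9 in RPKM was 1.01 to 1.96 in libraries numbered 3, 0.645 to 0.974 in those numbered 2 and 0.858 to 1.09 in those numbered 1. MORF9 was the more abundant of the pair in 5 of 5 libraries numbered 2 and in 0 of 5 numbered 3. The ratio of MORF1 to MORF9 had medians of 0.315, 0.119 and 0.129 in numbers 3, 2 and 1.

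Leaf cell type markers moved with the replicate number too. The summed CPM of the 3 mesophyll markers was 4505 to 13840 in libraries numbered 3, 16800 to 20410 in those numbered 2 and 12880 to 20310 in those numbered 1, and RBCS1A, LHCB1.3 and GAPB all fell in 3 against 1. The trichome marker GL2 had 1.06 to 2.31 CPM in number 3, 0.194 to 0.806 in number 2 and 0.178 to 1.03 in number 1. Guard cell MYB60 (0.45 on the log2 scale) and FAMA (0.40) and xylem CESA7 (0.70) also rose in 3 against 1, and phloem SUC2 rose by 0.41 in both comparisons. The other phloem marker, APL, did not rise (−0.02 in 3 against 1 and −0.18 in 3 against 2). Xylem CESA8 was not called in 3 against 1 (0.60, adjusted p = 0.0636 by edgeR). In 3 against 2 the guard cell markers MYB60 (−0.15) and FAMA (0.15) were not called. MYB60 rose in 2 against 1 as well (0.59, adjusted p = 0.0393 by edgeR), so its rise was not particular to number 3. FAMA was not called there (0.25, adjusted p = 0.165 by edgeR). MYB60 was the only 1 of the 12 markers called in 2 against 1, beside 2.45% of all genes. Of the 12 markers that passed the filter, 5 rose and 3 fell in 3 against 1, and 4 rose and 3 fell in 3 against 2, beside the 33.9% and 32.4% of all genes that changed. The floral markers summed to at most 0.132 CPM and the root markers to at most 0.1002 CPM in number 3. The part of cell make-up in the fall of MORF9 and MORF3 was not tested, and in RNA of whole leaves fewer cells of a type and less RNA per cell cannot be told apart. Without the 3 at5g10690 libraries, a choice made after the data were seen, MORF9 still fell, by 0.77 against number 2 and 0.57 against number 1 (adjusted p = 0.000867 and 0.00296 by edgeR), and MORF3 by 0.86 and 0.57 (adjusted p = 0.00549 and 0.0376).

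Other genes of organelle RNA editing were read beside the family: 24 genes that passed the filter, for RNA-binding proteins such as the ORRM proteins, zinc-finger OZ proteins, PPR proteins and plastid enzymes and regulators. MORF10 stood on the same list of 25 and did not pass. Of the 24 genes, 0 were called in any insertion line. The smallest unadjusted p-values belonged to DYW2, a PPR-like protein that supplies a deaminase domain, in 3 of the 4 lines. DYW2 had log2 differences of −0.43 (SE 0.14, unadjusted p = 0.0162 by edgeR) in mef37-1, −0.35 (SE 0.16, unadjusted p = 0.0656) in pgn and −0.28 (SE 0.17, unadjusted p = 0.136) in at5g10690. Next in pgn was NUWA, a partner of DYW2, at −0.40 (SE 0.20, unadjusted p = 0.0872), and in mef37-1 and at5g10690 it was ORRM2 at −0.39 (SE 0.22) and −0.30 (SE 0.29). In at3g50420 they were CLB19, a plastid PPR editing factor, at −0.51 (SE 0.25, unadjusted p = 0.0763) and NUWA at −0.40 (SE 0.26). The adjusted p of each was 0.987 or higher.

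By replicate number, 13 of the 24 changed in 3 against 2, of which 3 rose and 10 fell, where 15.2% of all genes rose and 17.2% fell. The 10 that fell were the plastid RNA-binding proteins CP31A (−1.29, SE 0.22) and CP29A (−0.85, SE 0.15), the plastid thioredoxin reductase NTRC (−0.77, SE 0.11), DYW1 (−0.62, SE 0.12), ORRM6 (−0.58, SE 0.14), the thioredoxin TRXz (−0.49, SE 0.17), the tetrapyrrole enzyme PPO1 (−0.47, SE 0.16), the signalling protein GUN1 (−0.45, SE 0.094), ORRM1 (−0.43, SE 0.12) and OZ1 (−0.42, SE 0.091), all as log2 differences. The 3 that rose, ORRM3 (0.90, SE 0.24), OZ2 (0.73, SE 0.24) and ORRM4 (0.39, SE 0.093), are known as mitochondrial editing factors. Mitochondrial ORRM2 had a value of −0.23 (SE 0.14), and the plastid PPR editing factors RARE1 and CLB19 had 0.20 (SE 0.13) and 0.15 (SE 0.17); none of these passed the test.

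In 3 against 1, 10 of the 24 changed, 4 higher and 6 lower, where 15.5% of all genes rose and 18.4% fell. CP31A, TRXz, CP29A, NTRC and GUN1 fell again, by 0.96, 0.56, 0.55, 0.47 and 0.28 on the log2 scale, and so did mitochondrial ORRM2, by 0.46. OZ2 (1.105), ORRM3 (0.80) and ORRM4 (0.28) rose again, and so did RARE1 (0.43), a PPR editing factor of plastids. Without the 3 at5g10690 libraries the count was 4, without pgn replicate 1 or at5g10690 replicate 3 it was 5, and without Col-0 replicate 1, pgn replicate 3 or at5g10690 replicate 1 it was 6. In 2 against 1, 0 of the 24 were called by edgeR (0 of 8 MORF genes too, beside the 2.45% of all genes), with 5 at an unadjusted p under 0.05 and 1 called by DESeq2. OZ1 was nearest at 0.37 (SE 0.092, adjusted p = 0.0514 by edgeR), followed by ORRM1 at 0.32 (SE 0.12, adjusted p = 0.143). The comparisons 3 against 2 and 3 against 1 share the libraries numbered 3.

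**Figure D4:**
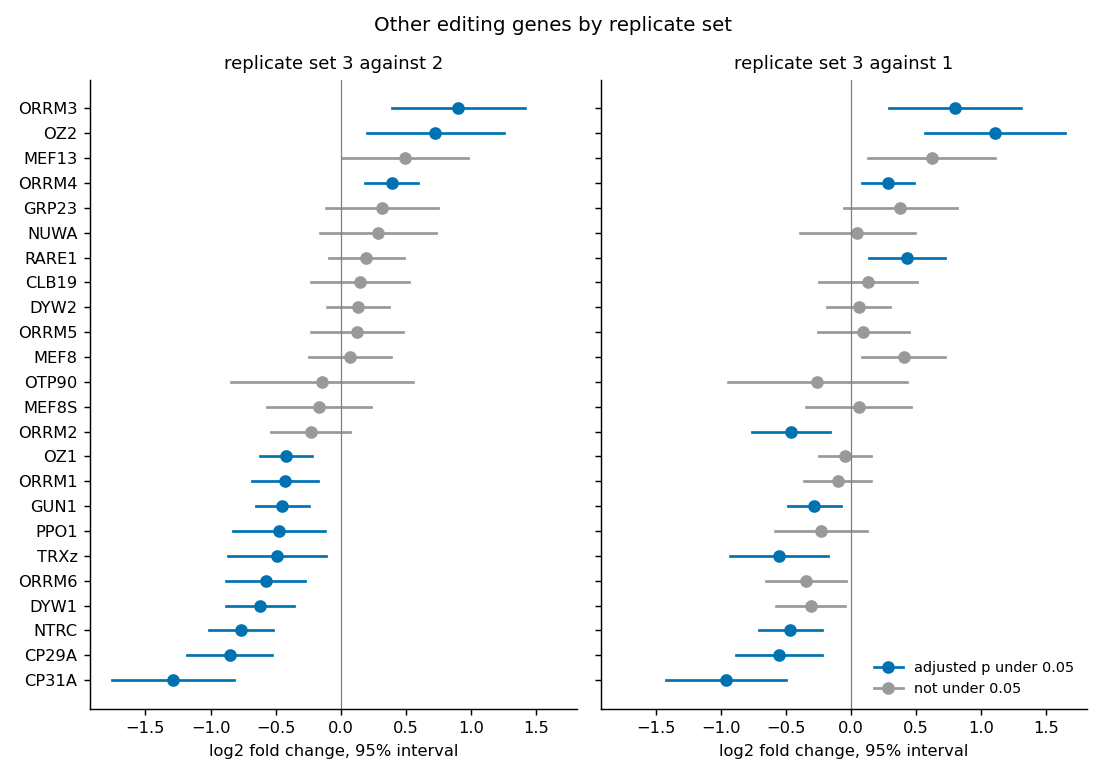
Log2 fold changes with 95% intervals for 24 other editing genes in libraries numbered 3 against those numbered 2 (left) and 1 (right), in the order of the left panel; blue marks an adjusted p under 0.05. CP31A has the lowest value in both panels, −1.29 and −0.96, and ORRM3 and OZ2 the highest.

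Across the 15 libraries the members did not vary as a unit. Of 28 pairs, 3 had a Pearson r of log2(CPM + 1) with an adjusted p under 0.05 (permutation test, 100000 draws, Benjamini-Hochberg over the 28 pairs). This permutation shuffled the 15 libraries freely, although part of the spread followed the replicate number. Its p-values can therefore be too small, and the 3 pairs are given as a description. MORF1 and MORF4 varied together (r = 0.76, permutation p = 0.00044, adjusted p = 0.0123; Spearman's rho = 0.64, adjusted p = 0.0948), and so did MORF3 and MORF9 (r = 0.75, permutation p = 0.00153, adjusted p = 0.0143; rho = 0.72, adjusted p = 0.0948). MORF4 and MORF9 varied in opposite directions (r = −0.73, permutation p = 0.0012, adjusted p = 0.0143; rho = −0.63, adjusted p = 0.0948). By rank, 0 of the 28 pairs passed. With the means of line and number taken off, r was 0.53, 0.06 and −0.64 for the 3 pairs, so that for MORF3 and MORF9 it did not remain within numbers. On those residual values 2 other pairs had an adjusted p under 0.05 by the same permutation. They were MORF1 with MORF8 (r = 0.79, permutation p = 0.00029, adjusted p = 0.00812) and MORF5 with MORF9 (r = −0.72, permutation p = 0.00257, adjusted p = 0.0360). The permutation shuffled the 15 residuals freely, although means of line and number had been taken off. These p-values are therefore too small, and the 2 pairs are not called. Over the plain values their r was 0.56 (adjusted p = 0.157) and −0.47 (adjusted p = 0.211). Leaving out the 2 libraries farthest from the median of the first gene gave r of 0.69, 0.69 and −0.48, and 0 of 28 pairs then passed. A group of 5 libraries of 1 number is too small for its own r. MORF5 and MORF6, the pair with the most similar exon, had r = 0.33 (permutation p = 0.236, adjusted p = 0.380).

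Among 18350 genes outside the family that passed the filter, the gene most like MORF9 over the 15 libraries was OCP3 (AT5G11270), which encodes a homeodomain protein, with a Pearson r of 0.97. For MORF1 it was AT3G10530 (r = 0.95), for MORF4 AT4G31351 (r = 0.95), for MORF3 AT2G45250 (r = 0.92) and for MORF8 AT4G39520 (r = 0.88). For MORF5 it was AT5G26110 (r = 0.85), for MORF6 NMD3 (AT2G03820, r = 0.84) and for MORF7 AT4G03811 (r = 0.82), which had only 0.329 CPM on average. These are the highest of many values, over libraries that share lines and numbers, and are given as a description.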

How the data were processed

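Counts of 8 MORF genes were examined in 15 Arabidopsis leaf libraries. Reads of 75 bases were single-end and stranded. Per the file headers and the study's methods, the authors mapped them with STAR without spliced alignments, keeping every best position, and deposited raw counts per gene from featureCounts 1.5.0-p2 (by strand, on exons, reads with several positions included) without normalization. Each table held 1 column of counts. The header names of the mef37-1, at3g50420 and at5g10690 columns differ from the labels, and samples were assigned by the labels. All exons of 6 members in the count tables had the coordinates of the RefSeq annotation of TAIR10.1, as had 3 of the 4 exons of MORF3 and of MORF7, the 66-base exon included.

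Each line was compared with Col-0 (3 against 3) by edgeR 4.0.16 under R 4.3.3. Genes of low count were removed by filterByExpr, library sizes of the kept genes were scaled by TMM, and glmQLFTest was run. The p-values were adjusted over all tested genes by Benjamini and Hochberg and called under 0.05. An exact permutation test of 3 against 3 libraries goes no lower than p = 0.1. Libraries with the same replicate number were compared in 1 fit with line and number. The numbers come from the labels, and no source describes them as pairs. Deviations from the group means in each insertion line correlated with those of the same-numbered Col-0 library. The lowest values were 0.687 in pgn, 0.419 in mef37-1, 0.235 in at3g50420 and 0.474 in at5g10690. With Col-0 libraries of another number the highest was 0.336, in at5g10690 replicate 2, beside 0.474 with the same number. Insertion lines were not compared with each other in this way. The replicate number was therefore also used as a block, beside the fit without it. Alternatives were DESeq2 1.42.0, RLE size factors, no filter, the nuclear genes alone, a single fit of all 15 libraries, the block and leaving out each library. The fits of pgn against Col-0 and of number 3 against 1 were also run on simulated counts. Apart from planted changes, the simulated libraries varied independently. They therefore do not show how the line tests behave when libraries share an effect of the number.

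The members, the 25 editing genes (MORF10 among them) and the 17 markers were chosen with earlier results of these data known. All members are named, as are partner genes that were called or had the 2 smallest p-values in a comparison, and the gene most like each member. Correlations were adjusted over 28 pairs in place of the 36 of all 9 genes. Apart from the report on the AT5G08305 transcript, comparisons made by the authors, and their editing values, were not used.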

Additional observations from a re-analysis of the deposited data

How the results depend on the processing

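The number of MORF genes called stayed at 0 in all 4 lines, in the test among lines and in replicate number 2 against 1 under every alternative run, the replicate block included, and at 2 in number 3 against 2 and 3 against 1 under DESeq2, RLE size factors, no filter and nuclear genes alone. Leaving out 1 library gave 2 to 4 in 3 against 1 and 2 to 3 in 3 against 2; the 4 came without at3g50420 replicate 1. No log2 fold change of a called MORF gene changed sign. Among uncalled ones some did; MORF4 in at5g10690, for example, was 0.39 with all libraries and -0.52 without at5g10690 replicate 3.

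Numbers of all genes called moved more. With DESeq2 they were 1 in pgn, 5 in mef37-1, 4 in at3g50420, 4 in at5g10690 and 1198 in number 2 against 1, where 1 editing gene was called. With all 15 libraries in 1 fit they were 1 in pgn, 2 in mef37-1 and 3 in at3g50420, and without the filter 1 in at3g50420. With the replicate block they were 1 in pgn, 2 in mef37-1, 1 in at3g50420, 2 in at5g10690 and 7 among lines. Leaving out 1 library gave 0 in mef37-1, 0 to 2 in at5g10690, 2 to 4 among lines and 0 to 731 in 2 against 1 (0 without Col-0 replicate 2 or pgn replicate 2, 11 without mef37-1 replicate 1, 34 without Col-0 replicate 1, 83 without pgn replicate 1, 209 and 267 without at3g50420 replicates 2 and 3, and 731 without at3g50420 replicate 1); for the editing genes it gave 5 to 11 in 3 against 1 and 0 to 1 in 2 against 1. Without the at5g10690 line, chosen after seeing the data, 3 against 1 called 3900 genes and 4 editing genes.

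In the order of levels per length, MORF1 became 6 and MORF3 became 5 with coding length, without Col-0 replicate 3 and with read positions within 1 exon (added after seeing the data); the last also made MORF5 4 and MORF6 3. The number of correlated pairs was 0 without the 2 farthest libraries. The cause of these shifts was not tested. MORF4, the member with the fewest counts (11 to 83 per library), had its widest interval in at5g10690, -0.90 to 1.68, where replicate 3 had 83 counts and replicates 1 and 2 had 14 each.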
